A study of Mus musculus with 6 samples.

Results

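The IL-6 family of cytokines and receptors was followed through regenerating tibialis anterior muscle (TAM) by its 8 genes *Il6*, *Lif*, *Osm*, *Clcf1*, *Il6ra*, *Il6st*, *Lifr*, and *Osmr*, which were taken by gene symbol from the 12436 genes listed. Each of the 8 had 1 row in the files. All groups were male mice aged 3 to 5 months, of a B6;129 strain that carries the cell-cycle reporter Fucci2aR in Gt(ROSA)26Sor, and the methods of the study state that Pax7-Fucci animals without Cre were used for the transcriptomes. Control mice ate a matched diet, and hypothyroid mice ate a low-iodine diet with 0.15% (w/w) propylthiouracil (PTU), a drug that blocks thyroid hormone synthesis, from 3 weeks before injury onward. The right TAM was uninjured (0 dpi) or was taken at 5 or 14 dpi after injection of cardiotoxin (50 µg/ml), a venom protein that kills myofibers and spares much of the stroma. Each of the 6 combinations of diet and day was 1 single-cell library made from 3 pooled mice, so no group had a replicate, no difference between groups was tested, and every interval covers counting error only.

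Cytokines of this family signal through receptors that share the chain gp130, encoded by *Il6st*. IL-6 first binds IL-6 receptor α (*Il6ra*), whereas LIF and oncostatin M bring gp130 together with a second signaling chain, the LIF receptor (*Lifr*) or the oncostatin M receptor (*Osmr*). CLCF1 acts with the LIF receptor, gp130, and the CNTF receptor. The receptors act through JAK kinases and STAT3, and SOCS3 is the main brake. In muscle the family is known for its part in inflammation, in the proliferation of satellite cells, and in the wasting of fibers.

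The genes lie on 6 chromosomes of the mouse build mm39. *Il6* is at chr5:30218112-30224979, *Clcf1* at chr19:4264292-4273544, *Il6ra* at chr3:89771366-89820503, and *Il6st* at chr13:112600604-112646620. The other four form close pairs. *Osm* (chr11:4186420-4191026) and *Lif* (chr11:4207557-4222514) are 16.5 kb apart, and *Osmr* (chr15:6843058-6904450) and *Lifr* (chr15:7120095-7226970) are 216 kb apart.

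The 250 bases before the RefSeq start of *Il6* and of *Lif* are shown because these 2 ligands shared their main source cells. They were read from the RefSeq promoter table, which is on GRCm38.p6 and has an entry for 6 of the 8 genes, and each sequence matched the genome of the files' build (GRCm39, the same as mm39) at 1 place. Capitals mark letters that match a motif searched on both strands.
Il6, chr5:30217862-30218111, plus strand: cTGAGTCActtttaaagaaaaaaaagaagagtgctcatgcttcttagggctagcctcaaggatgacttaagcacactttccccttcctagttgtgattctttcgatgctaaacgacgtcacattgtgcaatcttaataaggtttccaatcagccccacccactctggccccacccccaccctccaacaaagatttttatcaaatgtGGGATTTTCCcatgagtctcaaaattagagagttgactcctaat
Lif, chr11:4207318-4207567, plus strand: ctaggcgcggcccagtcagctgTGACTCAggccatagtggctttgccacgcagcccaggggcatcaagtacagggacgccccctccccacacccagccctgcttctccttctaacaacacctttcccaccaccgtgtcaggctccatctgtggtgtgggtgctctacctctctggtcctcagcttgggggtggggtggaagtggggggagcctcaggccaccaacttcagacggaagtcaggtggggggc
Both hold the AP-1 motif TGANTCA, the site of Fos and Jun proteins, which starts 249 bases before the start of *Il6* and 228 bases before that of *Lif*. The same motif was in 6.75% of 32851 promoters of this length. *Il6* alone of the 6 genes also holds the NF-κB motif (GGGA, any base, then TTTCC), 44 bases before its start, which 0.356% of promoters held. None of the windows of the 6 genes, of which *Lifr* has more than 1, holds the CRE motif TGACGTCA (1.55% of promoters) or the STAT motif TTCNNNGAA (7.02% of promoters). These are matches of letters, and binding was not measured.

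The first run of ordered barcodes in each file held 11207 cells, from 528 to 3294 per library, with 2283954 to 23497544 unique molecular identifiers (UMIs, each standing for a captured RNA molecule) per library and a median of 3634 to 8055 per cell. Later columns of the files, 9062 in all, were of uncertain condition, since 1680 columns repeat a cell of another file, and they were left out. Among the first runs, no cell was repeated, and 12 barcodes occurred in more than 1 library with other counts. Clustering gave 23 clusters, which were grouped by markers into FAP-like (fibro-adipogenic progenitor, 4669 cells), T/NK-like (1446), endothelial-like (1403), monocyte/macrophage-like (857), myogenic progenitor-like (526), myocyte-like (424), tenocyte-like (357), mural-like (250), B-like (207), glial-like (155), and dendritic-like cells (53). The cluster called Il4i1-led (687 cells) had 3 of 8 macrophage markers raised and stayed unnamed, because *Ccr7*, a dendritic marker, was among its leading genes with *Il4i1*, *Ifitm1*, *Pkib*, and *Il1b*. The 8 macrophage markers summed to 1067 and 1342 CPM in it at 5 dpi (control and hypothyroid), against 17569 and 19231 CPM in monocyte/macrophage-like cells. At 14 dpi they summed to 5193 against 14662 CPM in the control library. The cluster called Gzmb-led (173 cells) had 2 raised T/NK markers, too few to be named.

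*Il6* and *Lif* UMIs came mainly from FAP-like cells and *Osm* UMIs from Il4i1-led and monocyte/macrophage-like cells, while the level of *Clcf1* was highest in myogenic progenitor-like cells. Levels are given as CPM, the UMIs of a gene per 1000000 UMIs summed over all cells of a class. For *Il6*, mural-like cells were at 379 CPM (95% Poisson interval, 340 to 422) and FAP-like cells at 370 CPM (364 to 376), intervals that overlap. Endothelial-like cells were at 182 CPM. Il4i1-led cells followed at 159 CPM, with an *Il6* UMI in 26.5% of cells. FAP-like cells were 41.7% of cells, held 54.4% of the UMIs of all genes, and held 84.3% of the *Il6* UMIs. *Lif* was at 172 CPM in FAP-like cells, which held 91.8% of its UMIs, then at 136 CPM in glial-like and at 28.4 CPM in endothelial-like cells. *Osm* was at 110 CPM in Il4i1-led and 79.2 CPM in monocyte/macrophage-like cells, which together held 88.2% of its UMIs, against 0.958 CPM in FAP-like cells. *Clcf1* was at 133 CPM in myogenic progenitor-like cells and at 65.8 CPM in glial-like cells. Myogenic progenitor-like cells held 30.8% of its UMIs and 7.31% of the UMIs of all genes, and FAP-like cells 38.4% and 54.4%.

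The shares of cells with a UMI gave the same picture for *Il6*, *Osm*, and *Clcf1* against classes with little of the gene, and less so for *Lif*. *Il6* was seen in 38.5% of FAP-like cells (median depth 7148 UMIs) and in 3.61% of myogenic progenitor-like cells of like depth (7158 UMIs). *Lif* was seen in 15.25% of FAP-like cells, in 10.3% of myogenic progenitor-like cells of like depth, and in 15.5% of shallower glial-like cells (3467 UMIs). It was seen in 1.24% of T/NK-like cells, which were shallower still (median depth 2583 UMIs). *Osm* was seen in 27.4% of monocyte/macrophage-like cells (6011 UMIs) and 22.3% of Il4i1-led cells (5199 UMIs), against 0.578% of FAP-like cells. *Clcf1* was seen in 51.0% of myogenic progenitor-like cells and in 7.001% of monocyte/macrophage-like cells of like depth.

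*Osmr* and *Lifr* were highest in stromal and vessel classes, apart from *Lifr* in dendritic-like and glial-like cells, whereas *Il6st* and *Il6ra* were spread more widely. *Osmr* was at 180 CPM in FAP-like, 171 CPM in endothelial-like, and 166 CPM in mural-like cells, and the intervals of neighbors in this order overlap. *Lifr* was at 112 CPM in endothelial-like and 65.9 CPM in FAP-like cells, with dendritic-like, glial-like, and mural-like cells between them at 99.4, 71.4, and 66.6 CPM. Both were near absent from lymphoid cells, with *Osmr* at 2.45 CPM and *Lifr* at 1.78 CPM in T/NK-like cells. The common chain *Il6st* was the broadest. It was at 343 CPM in glial-like, 230 CPM in endothelial-like, and 205 CPM in FAP-like cells, still at 91.3 CPM in myogenic progenitor-like cells, and at 25.1 CPM in T/NK-like cells. *Il6ra* was at 84.1 CPM (52.7 to 127) in the 53 dendritic-like cells, 65.8 CPM (48.4 to 87.5) in glial-like cells, and 35.7 CPM in FAP-like cells, which held 69.9% of its UMIs and 54.4% of the UMIs of all genes. It was at 30.2 CPM in Il4i1-led, 21.8 CPM in monocyte/macrophage-like, and 11.1 CPM in endothelial-like and in T/NK-like cells. These levels pool libraries with different classes and days, and the order of *Il6ra* was not kept in each. Glial-like cells reached 20 cells in no library at 5 dpi, and in the hypothyroid library at 14 dpi *Il6ra* was at 11.2 CPM in them (2 UMIs, 1.35 to 40.3) and at 45.5 CPM in FAP-like cells.

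**Figure D1:**
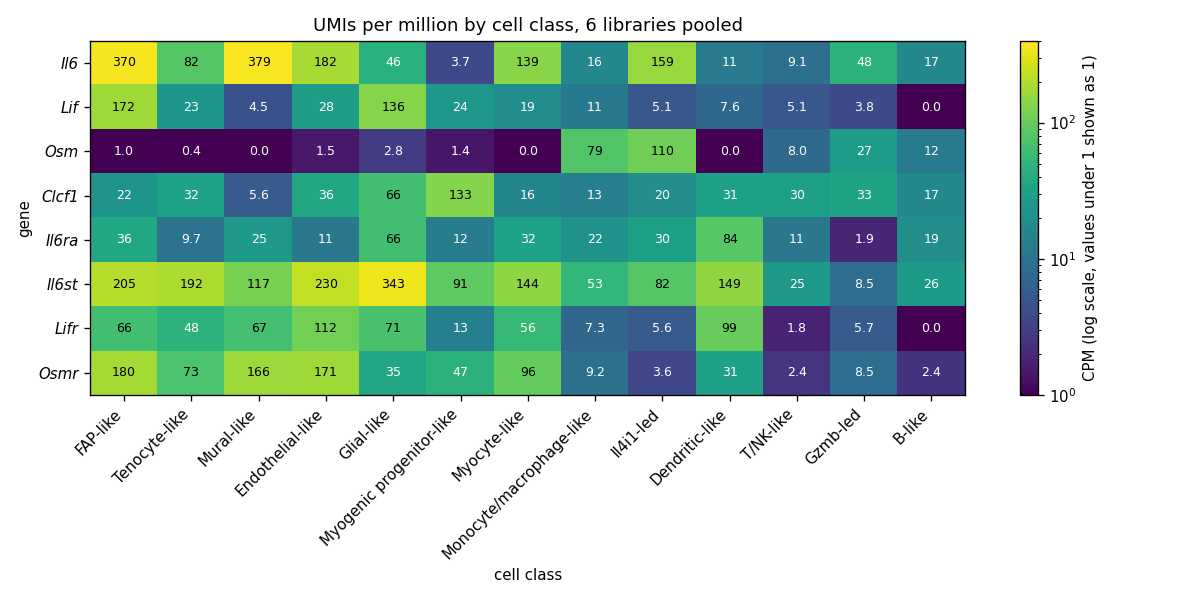
Level of each gene (rows) in each cell class (columns), in CPM of UMIs summed over the cells of all 6 libraries, with colors on a log scale and the value printed in each cell. *Osm* stands out in the monocyte/macrophage-like and Il4i1-led columns, *Clcf1* in the myogenic progenitor-like column (133 CPM), and *Il6*, *Lif*, and *Osmr* in the FAP-like column (370, 172, and 180 CPM).

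The diets were then compared class by class. A gene was called different between the 2 libraries of a day when the hypothyroid over control ratio of CPM was at least 2 or at most 0.5 and its exact 95% interval left out 1, in classes with at least 20 cells in both libraries and genes with at least 10 UMIs over both. Of 176 combinations of gene, class, and day, 121 had enough UMIs, and of these 14 were called higher in the hypothyroid library (11.6%) and 7 lower (5.79%). Over all genes, 3.43% of combinations were called higher and 6.71% lower. At 0 dpi, 4 of 20 were called higher and 1 lower (all genes, 3.91% and 4.09%). At 5 dpi, 4 of 46 were called higher and 3 lower (all genes, 3.12% and 9.69%), and at 14 dpi 6 of 55 were called higher and 3 lower (all genes, 3.54% and 4.9%). The median ratio of the 8 genes over the 121 combinations was 0.921, beside 0.903 for all genes. Of the 14 higher calls, those of *Il6* were the most numerous, with 6. That of *Osmr* in monocyte/macrophage-like cells at 5 dpi came from a control level of 0. At 5 dpi the median ratio of all genes was 0.8 in FAP-like cells (−0.32 on the log2 scale) and 0.736 in Il4i1-led cells, so ratios there are read against those values.

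**Figure D2:**
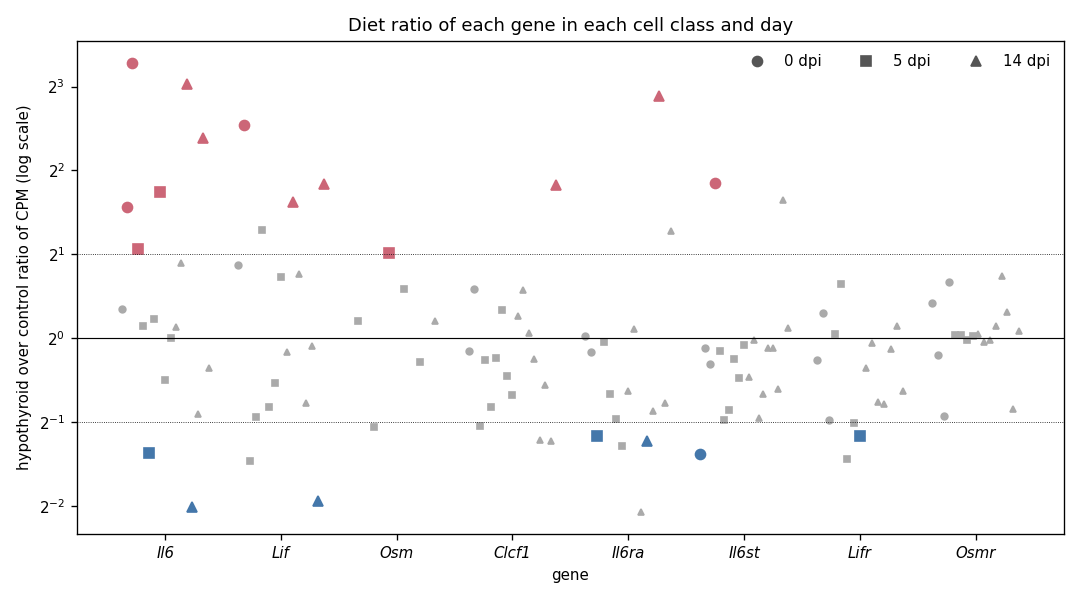
Hypothyroid over control ratio of CPM (log axis) for each gene in each cell class and day that had enough cells and UMIs, with circles for 0 dpi, squares for 5 dpi, and triangles for 14 dpi. Red points were called higher and blue points lower, dotted lines mark ratios of 2 and 0.5, and 1 ratio against a control pool without UMIs (*Osmr* in monocyte/macrophage-like cells at 5 dpi) is not drawn.

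*Il6* in FAP-like cells was higher in the hypothyroid library on each day, by little at 5 dpi. In control libraries it was at 274 CPM at 0 dpi, 386 CPM at 5 dpi, and 218 CPM at 14 dpi. In hypothyroid libraries it was at 812, 425, and 407 CPM on the same days. The control level was thus highest at 5 dpi and the hypothyroid level before injury. The ratio was 2.96 at 0 dpi (2.73 to 3.21), 1.10 at 5 dpi (1.05 to 1.16), and 1.86 at 14 dpi (1.76 to 1.97), so the 0 dpi ratio alone was called. Of the 8 genes, 1 was called in FAP-like cells at 0 dpi (*Il6*), 1 at 5 dpi (*Il6ra*), and 1 at 14 dpi (*Lif*), beside 6.12%, 12.7%, and 7.62% of all genes in these cells.

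The excess at 0 dpi sat partly in few cells. The 5 hypothyroid FAP-like cells with the most *Il6* held 40.6% of its 1174 UMIs, and 1 cell held 288. The 5 control cells held 19.0% of 1208 UMIs. Without these cells the ratio was 2.22, and with every cell thinned to 1000 UMIs it was 2.92. The share of cells with an *Il6* UMI differed less, at 30% (26.7% to 33.4%) in the control and 36.4% in the hypothyroid library, while after thinning it was 10.3% (8.17% to 12.7%) and 19.5%. When all columns of each file were used instead of the first run, the ratio was 1.80 and was no longer called.

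*Il6* was uneven among the FAP-like clusters, and 4 of the 8 genes (*Il6*, *Lif*, *Osm*, and *Lifr*) were among the genes used for clustering, so levels by cluster are descriptive. Over all libraries *Il6* was at 735 CPM in cluster 1 (leading genes *Fam167a*, *Uap1*, and *C7*), at 558 CPM in cluster 15 (*Igfbp3*, *Dlk1*, and *Tfpi2*), and at 544 CPM in cluster 21 (*Inhba*, *Ereg*, and *Csf2*). It was at 69.5 CPM in cluster 4 (*Abca8a*, *Gas1*, and *Abca8b*). Clusters 1, 4, 6, and 7 held most FAP-like cells at 0 dpi, clusters 20 and 21 at 5 dpi, and clusters 2, 4, and 15 at 14 dpi. Within cluster 1 at 0 dpi *Il6* went from 438 CPM in 205 control cells to 1787 CPM in 65 hypothyroid cells, a ratio of 4.08 (3.71 to 4.50). Cluster 7 had a ratio of 4.02 (2.74 to 5.95) from 49 and 66 UMIs, and cluster 4 of 2.53 (1.18 to 5.55) from 14 and 17 UMIs. Cluster 6 had a ratio of 1.56 (1.17 to 2.06), so all 4 were above 1. Cluster 1 held 937 of the 1174 *Il6* UMIs of hypothyroid FAP-like cells at 0 dpi. At 14 dpi the ratio was 1.19 in cluster 15 (1.11 to 1.27), 1.46 in cluster 2 (1.26 to 1.69), 1.24 in cluster 4 (0.914 to 1.68), and 2.98 in cluster 7 (1.99 to 4.45), beside 1.86 in the class. Cluster 15, at 500.1 and 594 CPM of *Il6*, was 23.4% of control and 40.0% of hypothyroid FAP-like cells on that day, and the part of this difference in the class ratio was not tested. At 5 dpi the 2 main clusters did not separate the diets, with ratios of 1.01 (0.928 to 1.10) in cluster 20 and 0.991 (0.927 to 1.06) in cluster 21. Cluster 21 was 97 of 410 control and 379 of 864 hypothyroid FAP-like cells on that day.

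Of 6 genes of the early response to stress, chosen after their values were seen, 3 of 25 combinations at 0 dpi were called higher and 5 lower (all genes, 3.91% and 4.09%). At 5 dpi, 12 of 44 were called higher and 2 lower (all genes, 3.12% and 9.69%). At 14 dpi, 0 of 53 were called higher and 8 lower (all genes, 3.54% and 4.9%). In FAP-like cells at 0 dpi *Fos* was at 1143 CPM with the control diet and 2125 CPM with the hypothyroid diet. *Jun* was at 1156 and 1709 CPM, and neither *Fos* nor *Jun* was called. *Hspa1a*, at 72.5 and 156 CPM, had the largest proportional excess of the 6 genes, past the fold needed for a call. *Egr1* was at 1429 and 1884 CPM, *Atf3* at 614 and 848 CPM, and *Dusp1* at 416.5 and 434 CPM. At 14 dpi *Fos* was at 1169 and 579 CPM, *Jun* at 928 and 445 CPM, and *Il6* at 218 and 407 CPM in control and hypothyroid cells. Myocyte markers in FAP-like cells were also higher at 0 dpi, with 8 markers summing to 1841 CPM with the control and 6738 CPM with the hypothyroid diet, and they were lower at 14 dpi (5630 and 1528 CPM). The part of the early-response genes and of the myocyte markers in the *Il6* ratios was not tested.

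**Figure D3:**
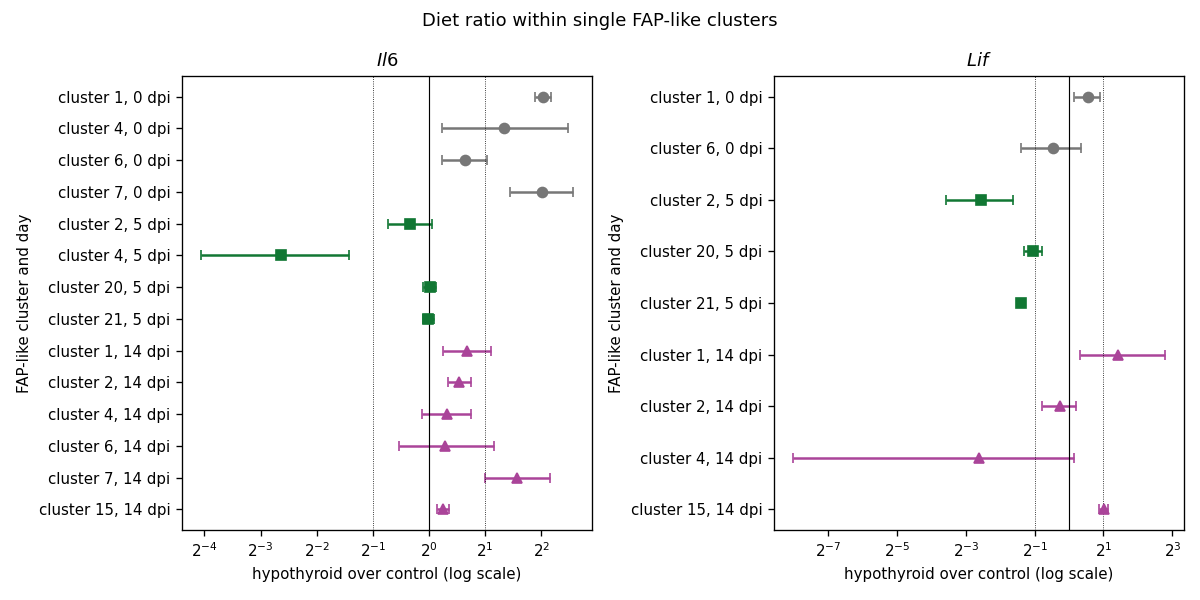
Hypothyroid over control ratio (log axis) of *Il6* and *Lif* within single FAP-like clusters with at least 20 cells in both libraries, with exact 95% intervals, gray circles for 0 dpi, green squares for 5 dpi, and purple triangles for 14 dpi. *Il6* lies above 1 in all 4 clusters at 0 dpi and near 1 in clusters 20 and 21 at 5 dpi, and *Lif* lies below 0.5 in 3 clusters at 5 dpi and at 2.003 in cluster 15 at 14 dpi.

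Outside FAP-like cells, *Il6* in endothelial-like cells was at 153, 250, and 150 CPM in the control libraries (0, 5, and 14 dpi) and at 195, 522, and 164 CPM in the hypothyroid libraries. The 5 dpi ratio of 2.09 (1.68 to 2.59) was called, but it rested on few cells, since 5 of the 35 hypothyroid cells held 91.9% of the UMIs and without the 5 highest cells of each library the ratio was 0.374. In myocyte-like cells *Il6* at 0 dpi was at 43.4 CPM with the control diet and 421 CPM with the hypothyroid diet (ratio 9.71, 5.75 to 17.5). Of the 126 hypothyroid UMIs, 79.4% were in 5 of 95 cells, the share of cells with a UMI was 14.7% in control and 13.7% in hypothyroid cells, and without the 5 highest cells of each library the ratio was 5.54. At 14 dpi *Il6* in these cells was at 57.8 and 303 CPM (ratio 5.24). On that day all 60 hypothyroid UMIs were in at most 5 cells, and none was left without them. All 8 FAP markers were detected in myocyte-like cells, with summed levels of 11939 to 25335 CPM, against 25530 to 47876 CPM in FAP-like cells. The sum was lower in the hypothyroid than in the control myocyte-like cells on both days. It was at 16822 against 25335 CPM at 0 dpi and at 11939 against 15689 CPM at 14 dpi. The part of these markers in the *Il6* ratios was not tested. In mural-like cells, which reached 20 cells in 3 libraries, *Il6* was at 786 CPM in control cells at 5 dpi. At 14 dpi it was at 250 and 133 CPM in control and hypothyroid cells, the latter from 10 UMIs. Il4i1-led cells at 5 dpi were at 164 CPM of *Il6* with the control diet and 193 CPM with the hypothyroid diet, not called. A UMI was seen in 23.7% and 39.5% of these cells, and after thinning in 8.71% (6.26% to 11.7%) and 13.3% (8.42% to 19.6%).

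*Lif*, which keeps mouse embryonic stem cells undifferentiated in culture and stimulates myoblast growth, had its own course in FAP-like cells. In control libraries it was at 63.8 CPM at 0 dpi, 301 CPM at 5 dpi, and 85.6 CPM at 14 dpi. In hypothyroid libraries it was at 117, 157, and 263 CPM. The control level peaked at 5 dpi, and the hypothyroid level was highest at 14 dpi. The diet ratio was 1.83 at 0 dpi (1.504 to 2.22), 0.522 at 5 dpi (0.489 to 0.556), and 3.07 at 14 dpi (2.82 to 3.34), and the last was called. At 0 dpi the 5 highest cells held 49.5% of the control and 78.1% of the hypothyroid UMIs, and 8.40% and 8.50% of cells had a UMI. Without the 5 highest cells the 0 dpi ratio was 0.810, and with all columns of each file it was 0.946, so no direction held on that day. At 5 dpi, with the median ratio of all genes at 0.8, *Lif* was lower in the hypothyroid library in both main clusters, at 0.482 (0.401 to 0.578) in cluster 20 and 0.379 (0.353 to 0.407) in cluster 21. With all columns the class ratio at 5 dpi was 0.941.

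At 14 dpi cluster 15 carried most of the *Lif*. It held 603 of 749 control and 1820 of 2121 hypothyroid FAP-like UMIs, at 251 and 503 CPM, a ratio of 2.003 (1.83 to 2.20). Cluster 15 was 23.4% of control and 40.0% of hypothyroid FAP-like cells on that day. In cluster 2 *Lif* was at 31.0 and 25.6 CPM, with no difference beyond counting error (ratio 0.826, 0.584 to 1.15). Without the 5 highest cells the class ratio at 14 dpi was 3.86, and with all columns of each file it was 1.83 and was not called.

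*Il6* and *Lif* were also found in the same cells. At 14 dpi *Lif* was seen in 31.3% (26.5% to 36.5%) of hypothyroid FAP-like cells with an *Il6* UMI and in 7.36% (5.23% to 10.0%) of those without. In the control library these shares were 18.5% and 3.52%. Deeper cells show more of both, but after thinning the shares were still 27.3% (20.4% to 35.2%) and 5.10% (3.58% to 7.03%) in hypothyroid and 16.4% and 1.58% in control cells. At 0 dpi the thinned shares rested on 5 and 3 cells with both, and their intervals overlap.

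In glial-like cells *Lif* was at 49.9 CPM in control cells at 0 dpi and at 158 and 268 CPM in control and hypothyroid cells at 14 dpi, and 25% of cells in both 14 dpi libraries had a UMI. The 8 FAP markers in the same pools summed to 2382, 4696, and 7678 CPM, and their part was not tested. In myogenic progenitor-like cells *Lif* at 0 dpi was at 25.5 CPM with the control diet and 149 CPM with the hypothyroid diet, from 4 and 21 UMIs, and at 60.7 and 15.7 CPM at 14 dpi, from 29 and 9 UMIs. Both ratios were called, in opposite directions (5.83 and 0.259), and 3 cells at most carried the 0 dpi UMIs of either library.

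*Osm*, which is made by activated macrophages and neutrophils, had 9 UMIs in each library of uninjured muscle. Of these, 6 in the control and 9 in the hypothyroid library were in Il4i1-led cells, of which there were 2 and 8, too few for a level, and no monocyte/macrophage-like cells were found on that day. None of the 750 control and 294 hypothyroid FAP-like cells at 0 dpi had an *Osm* UMI, which allows a share of cells with a UMI of up to 0.4% and 1.02% and sets no limit on cells that express the gene. In monocyte/macrophage-like cells *Osm* at 5 dpi was at 55.0 CPM with the control diet and 82.3 CPM with the hypothyroid diet (ratio 1.498, 1.06 to 2.17), and at 71.5 and 82.3 CPM at 14 dpi (ratio 1.15, 0.733 to 1.88). At 14 dpi the diets were not separable at this depth, and at 5 dpi the direction turned when the groups of cells were drawn differently (0.617 with 30 principal components and 0.653 with all columns). Among Il4i1-led cells at 5 dpi, the 465 of the control library were at 80.1 CPM of *Osm* and the 167 of the hypothyroid library at 162 CPM. This ratio of 2.03 (1.65 to 2.49) was called, with 16.6% of control and 37.7% of hypothyroid cells carrying a UMI, and 7.37% and 14.6% after thinning. The border between Il4i1-led and monocyte/macrophage-like cells was not firm. With 30 principal components the Il4i1-led group had 442 cells and an *Osm* ratio of 4.89, while both groups together still held 85.6% of the *Osm* UMIs. Relative to whole libraries *Osm* was at 1.52, 19.0, and 3.58 CPM in control and at 3.94, 25.6, and 10.4 CPM in hypothyroid muscle. In such totals more cells of these groups and more RNA per cell cannot be told apart.

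*Clcf1* in myogenic progenitor-like cells was low at 5 dpi. It was at 363, 84.1, and 368 CPM in control libraries and at 545, 61.7, and 250 CPM in hypothyroid libraries (0, 5, and 14 dpi). From 0 to 5 dpi the ratio was 0.231 (0.167 to 0.325) in control and 0.113 (0.0863 to 0.150) in hypothyroid cells. The share of cells with a UMI stayed between 43.9% and 62.0% in the 6 libraries, but cells at 5 dpi were deeper, and after thinning it was 9.62% and 8.70% at 5 dpi against 16.1% to 31.1% on the other days. The diet ratios were 1.499 (1.05 to 2.15), 0.734 (0.576 to 0.938), and 0.678 (0.540 to 0.851), and none was called. The 0 dpi ratio was 1.06 without the 5 highest cells and 0.793 with all columns. In FAP-like cells *Clcf1* took the opposite course, at 6.13, 39.0, and 11.2 CPM in control and 5.53, 32.6, and 16.7 CPM in hypothyroid muscle.

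**Figure D4:**
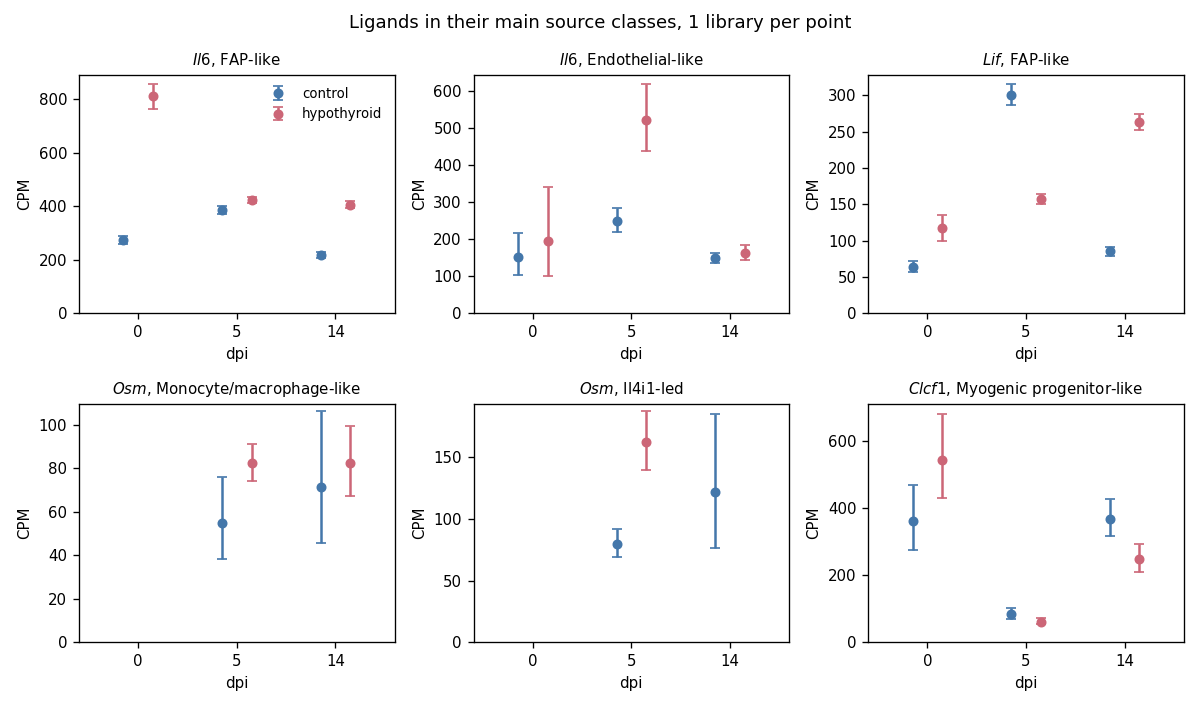
Levels of the ligands in their main source classes, in CPM (vertical axis, from 0) at 0, 5, and 14 dpi, with blue for control and red for hypothyroid. Each point is 1 library with at least 20 cells of the class, and bars are exact 95% Poisson intervals. *Il6* in hypothyroid FAP-like cells is at 812 CPM before injury, *Lif* peaks at 301 CPM at 5 dpi in control FAP-like cells, and *Clcf1* is lowest at 5 dpi with either diet.

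In CPM, the receptor chains of FAP-like cells were lower at 5 dpi than at 0 dpi with either diet. Cells at 5 dpi were deeper, at medians of 13028 and 14208 UMIs against 5562 and 4268 at 0 dpi. Before thinning, the share of cells with a UMI fell with both diets for *Il6ra* alone. For *Osmr* it went from 57.1% to 65.4% in control and from 50.3% to 70.8% in hypothyroid cells. After thinning the share was lower at 5 dpi for every chain, but the hypothyroid *Osmr* intervals overlap (15.4% to 24.95% and 13.6% to 18.7%). *Il6ra* went from 97.7 to 15.2 and then 42.4 CPM in control and from 99.6 to 6.77 and then 45.5 CPM in hypothyroid cells. *Lifr* went from 102 to 38.1 and 67.3 CPM and from 126 to 59.4 and 64.9 CPM. *Osmr* went from 275 to 130 and 208.5 CPM and from 239 to 133 and 202 CPM. *Il6ra* was thus the chain with the largest drop, to 0.155 of its 0 dpi level in control (0.122 to 0.196) and 0.068 in hypothyroid cells (0.0516 to 0.0892). *Il6st* was at 308.5, 220, and 241.5 CPM in control and 284, 111, and 238 CPM in hypothyroid cells, lowest in the hypothyroid library at 5 dpi. After thinning, 16.5% (13.1% to 20.5%) of control and 12.7% (10.5% to 15.1%) of hypothyroid cells at 5 dpi had an *Il6st* UMI.

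These day changes were common among all genes of FAP-like cells, whose clusters differ by day. In control cells from 0 to 5 dpi, 2 of 7 genes of the family were called higher (*Lif* and *Clcf1*) and 3 lower (*Il6ra*, *Lifr*, and *Osmr*), beside 20.6% and 12.1% of all genes. In hypothyroid cells 1 of 8 was called higher (*Clcf1*) and 3 lower (*Il6ra*, *Il6st*, and *Lifr*), beside 14.3% and 20.3%. From 5 to 14 dpi, 1 of 8 was called higher (*Il6ra*) and 2 lower (*Lif* and *Clcf1*) in control cells, beside 9.05% and 17.7%, and 2 higher (*Il6ra* and *Il6st*) and 1 lower (*Osm*, at 1.75 and 0.371 CPM) in hypothyroid cells, beside 11.7% and 16.6%. The 2 comparisons of a diet share the 5 dpi library.

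Between diets, receptors in FAP-like cells differed little at 0 and 14 dpi. At 0 dpi the ratios were 1.02 for *Il6ra* (0.838 to 1.23), 0.921 for *Il6st* (0.823 to 1.03), 1.23 for *Lifr* (1.03 to 1.47), and 0.867 for *Osmr* (0.767 to 0.978). At 14 dpi all 4 lay between 0.964 and 1.07, with intervals that held 1 and reached from 0.855 to 1.25. At 5 dpi *Il6ra* was called lower in the hypothyroid library (15.2 and 6.77 CPM, ratio 0.446, 0.329 to 0.605), *Il6st* had a ratio of 0.507 (0.470 to 0.547), *Lifr* of 1.56 (1.34 to 1.82), and *Osmr* of 1.03 (0.944 to 1.12). Divided by the median ratio of all genes, the *Il6ra* ratio was 0.558, and with all columns of each file it was 0.611, and neither was called.

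Endothelial-like cells held *Lifr* and *Osmr* on every day. *Lifr* was at 253, 145, and 104 CPM in control and 211.5, 150, and 81.1 CPM in hypothyroid cells, and *Osmr* at 268, 168, and 163 CPM and at 358, 173, and 168 CPM. None of these 6 diet ratios was called. *Il6st* at 0 dpi was at 550 CPM in 104 control cells and 211.5 CPM in 28 hypothyroid cells, and the ratio of 0.385 (0.199 to 0.684) was called from 115 and 13 UMIs, of which 1 control cell held 31. With all columns it was 0.707 and was not called. *Il6ra* was at 14.0 CPM or less in endothelial-like cells of all 6 libraries.

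In myogenic progenitor-like cells *Il6st* was at 102, 87.9, and 167 CPM in control and 368, 63.0, and 110 CPM in hypothyroid libraries, and the 0 dpi ratio of 3.61 (2.03 to 6.77) was called from 16 and 52 UMIs in 38 and 27 cells, but not with all columns (1.495). *Osmr* was at 44.6, 41.3, and 87.9 CPM and at 70.7, 42.0, and 48.9 CPM, and *Lifr* at 28.3 CPM or less, with a called 5 dpi ratio of 0.443 (24.5 and 10.9 CPM). *Il6ra* was at 41.9 CPM or less in these cells. Monocyte/macrophage-like cells carried little *Osmr*, at 9.15 CPM over all libraries. *Osmr* in monocyte/macrophage-like cells had no UMI in 97 control cells and was at 8.02 CPM in 535 hypothyroid cells at 5 dpi, at least 1.75-fold higher than the level of 3 counts over the control cells. It was called because the control level was 0, and the bound of 1.75 is under the ratio of 2. With all columns the ratio was 0.791, so the direction turned, and the summed level of 8 FAP markers was 444 and 894 CPM in the same cells and its part was not tested. *Il6ra* in monocyte/macrophage-like cells was at 24.4 and 15.4 CPM at 5 dpi and at 71.5 and 30.6 CPM at 14 dpi, the latter called (ratio 0.427, 0.251 to 0.743).

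**Figure D5:**
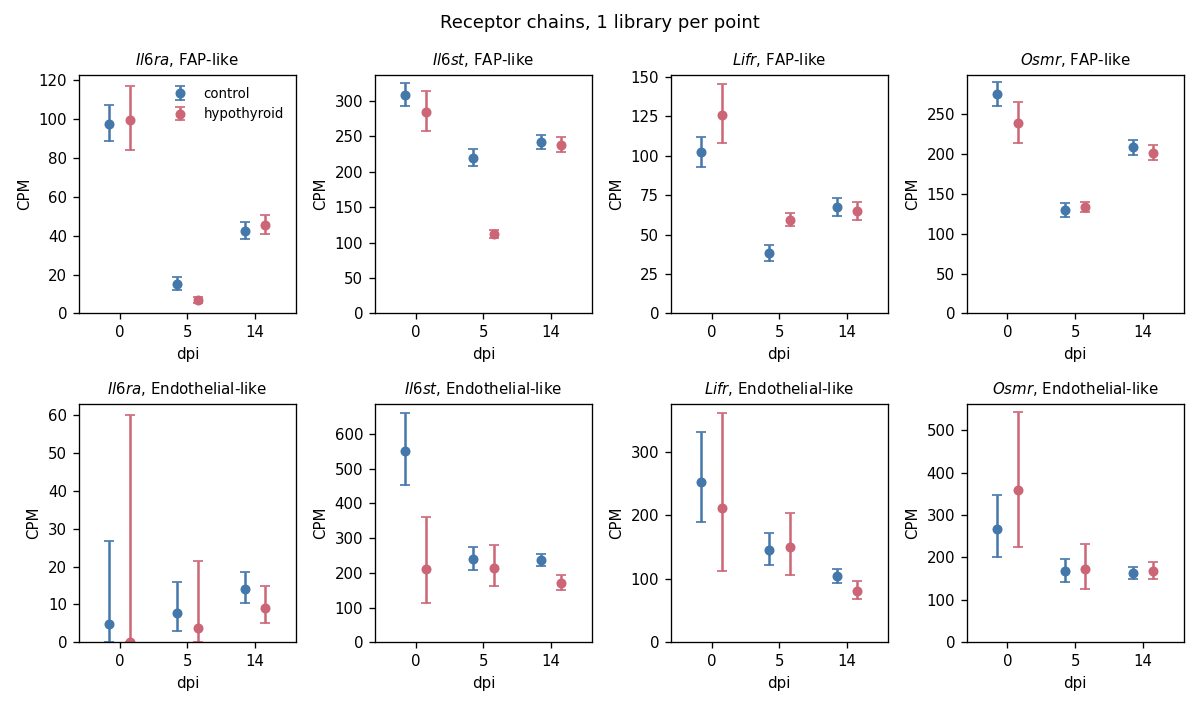
Levels of the 4 receptor chains in FAP-like (top) and endothelial-like cells (bottom), in CPM (vertical axis, from 0) at 0, 5, and 14 dpi, with blue for control and red for hypothyroid. Each point is 1 library, and bars are exact 95% Poisson intervals. *Il6ra* in FAP-like cells is near 100 CPM at 0 dpi with either diet and at 15.2 and 6.77 CPM at 5 dpi. *Il6st* in FAP-like cells at 5 dpi is at 220 and 111 CPM, a difference that was not called.

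Receptor pairs were counted in single cells. UMIs of both *Osmr* and *Il6st*, the oncostatin M receptor, were found in 48.8% of FAP-like cells, 24.95% of endothelial-like cells (median depth 2504 UMIs), and 0.277% of T/NK-like cells at a like depth (2583 UMIs). *Lifr* with *Il6st* was found in 23.8% of FAP-like, 19.0% of endothelial-like, and 5.89% of myogenic progenitor-like cells. *Il6ra* with *Il6st*, the classic IL-6 receptor, was found in 18.0% of FAP-like and 16.1% of glial-like cells but in 3.14% of endothelial-like cells. In FAP-like cells the classic pair was seen in 29.6%, 13.4%, and 14.5% of control cells and in 25.2%, 6.83%, and 24.9% of hypothyroid cells (0, 5, and 14 dpi). At 14 dpi the hypothyroid cells were deeper (median 9422 against 5641 UMIs), and after thinning the shares of that day were 0.837% (0.433% to 1.46%) and 0.718% (0.264% to 1.56%). Thinned shares of all pairs in FAP-like cells were at most 5.50%.

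Remaining calls came from small pools. In tenocyte-like cells at 14 dpi *Lif* was at 14.4 and 51.4 CPM and *Clcf1* at 15.2 and 53.9 CPM, from 19 to 22 UMIs each, and the *Lif* UMIs of the 49 hypothyroid cells were all in at most 5 cells. *Il6* in glial-like cells at 14 dpi was at 17.1 and 140 CPM, with 23 of 25 hypothyroid UMIs in 1 cell, and the 8 FAP markers summed to 4696 and 7678 CPM there. *Il6* in Gzmb-led cells at 5 dpi was at 46.4 and 18.0 CPM, with FAP markers at 408 and 5318 CPM, whose part was not tested, and at resolution 0.3 its ratio turned to 2.39. *Il6ra* in myocyte-like cells at 14 dpi was at 6.15 and 45.4 CPM, from 5 and 9 UMIs. *Il6* in monocyte/macrophage-like cells was at 4.58 and 15.4 CPM at 5 dpi and 53.6 and 13.3 CPM at 14 dpi, called in opposite directions from 3 to 71 UMIs. The 5 dpi direction turned with all columns (0.1919), 30 principal components (0.155), and the smallest value as 1 UMI (0.206), and the FAP markers in these cells summed to 444 and 894 CPM on that day, whose part was not tested.

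Other genes of the pathway were read as lists. Of the 10 other ligands and receptors read, 5 were analyzed here, and 1 of 45 combinations was called higher (2.22%) and 5 lower (11.1%), with a median ratio of 0.921, beside 3.43% and 6.71% of combinations and a median of 0.903 over all genes. *Il11*, a profibrotic ligand of the family, was called lower in 3 of 13, and in FAP-like cells it was at 18.6, 116, and 39.9 CPM in control and 24.9, 90.1, and 72.3 CPM in hypothyroid muscle, none of them called. *Cntfr*, the receptor of ciliary neurotrophic factor, was called lower in 2 of 5, among them FAP-like cells at 14 dpi (4.80 and 2.35 CPM). Of 8 signal transducers, 2 of 149 combinations were called higher (1.34%) and 7 lower (4.70%), with a median of 0.812, so both shares were below those of all genes. *Stat3* was called lower in 2 of 22, among them myogenic progenitor-like cells at 5 dpi (215 and 90.2 CPM), *Stat5b* in 3 of 19, and *Stat5a* in 1 of 13, with another *Stat5a* call higher.

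Of 6 feedback genes, 4 of 108 combinations were called higher (3.70%) and 5 lower (4.63%), near the 3.43% and 6.71% of all genes, with a median of 0.958. Among the calls were those of *Socs3* (2 higher and 1 lower of 21), *Socs1* (1 and 1 of 20), and *Pias3* (2 lower of 13). *Socs3* in FAP-like cells was at 310, 422, and 327 CPM in control and 573, 190.5, and 223 CPM in hypothyroid muscle. Its 5 dpi ratio of 0.451 (0.427 to 0.477) was called lower, beside a median ratio of 0.8 over all genes in these cells on that day. Of 14 genes known to respond to STAT3, 35 of 244 combinations were called higher (14.3%) and 23 lower (9.43%), both above the shares of all genes, with a median of 1.02. *Ccl2*, a monocyte attractant, was called higher in 11 of 21, for example in FAP-like cells at 5 dpi (4098 and 15202 CPM). *Cebpd*, an acute-phase transcription factor, was called higher in 7 of 20. No other gene of the list had more than 4 higher calls, and *Bcl3* and *Mcl1* had no call in either direction. Calls of the same gene in several classes share libraries. *Timp1*, an inhibitor of matrix proteases, was called higher in 4 and lower in 1 of 16, and the adhesion gene *Icam1* higher in 1 and lower in 4 of 20. The genes for the shedding proteases *Adam10* and *Adam17*, which release soluble IL-6 receptor, had 1 higher call in 41 combinations (2.44%) and none lower.

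Genes with profiles most like each member were found over 50 pools of 1 class and 1 library, which share libraries and classes, so the correlations of log2(CPM + 1) are descriptive. *Il6* was most like *Procr* (r = 0.867) and *Thbd*, *Osm* most like *Fcgr3* (r = 0.904), *Clcf1* most like *Cct2* (r = 0.729), *Lif* most like *Zfp469* (r = 0.841), and *Il6ra* most like *Acer3* (r = 0.685). *Il6st* was most like *Zfyve9* (r = 0.850), *Lifr* most like *Pls3* (r = 0.914), and *Osmr* most like *Adamts1* (r = 0.938). Within the family the closest profiles were those of *Lifr* and *Osmr* (r = 0.843), and *Osm* and its receptor *Osmr* ran opposite (r = −0.608).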

How the data were processed

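Single-cell RNA of pooled TAM was measured in 6 libraries, 1 per diet and day. As stated for the study, the authors used Partek Flow and a Cell Ranger aligner with mm39 and its annotation, counted UMIs per gene, filtered cells, and scaled each cell to CPM; the deposited values are log2(CPM + 1) with a pseudocount of 1. The listed gene stop is 1 base past the annotation's end and was reduced by 1.

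UMIs were recovered per cell by taking its most frequent nonzero value as 1 UMI, after which 99.934% of 39334018 values were whole within 2% of the count. Cells of the first barcode run were clustered (2000 variable genes, 20 principal components, 15 neighbors, Leiden resolution 1.0; Python 3.11.15, scanpy 1.11.5, igraph 0.11.9, scikit-learn 1.9.0). A cluster was named from at least 3 markers raised at least 2-fold and seen in at least 25% of cells. This rule was adjusted after clusters had been seen. No doublets were removed, and no further filter on cells was applied. UMIs were summed per class and library, with exact Poisson, Clopper-Pearson, and conditional binomial 95% intervals (scipy 1.17.1), which cover counting error only; the scripts were tested on simulated data. Thinning drew 1000 UMIs per cell and left out shallower cells, from 7 of 294 to 63 of 1497 in FAP-like cells.

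The genes and lists were chosen with earlier results of these data known. Named were all 8 genes, up to 4 pathway genes per list by their number of calls, and the 3 genes most correlated with each member over pools, of which the first or second is given. Alternatives concerned the columns used, clustering, UMI recovery, averaging, thinning, centering, the UMI minimum, and leaving out the 5 highest cells. Proteins were not analysed here, and 1 gene of the pathway lists is not reported here and was left out of their counts.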

Additional observations from a re-analysis of the deposited data

Results flagged for a closer look

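*Il6* in monocyte/macrophage-like cells had a hypothyroid over control ratio of 3.36 at 5 dpi and of 0.248 at 14 dpi, and *Lif* in myogenic progenitor-like cells one of 5.83 at 0 dpi and of 0.259 at 14 dpi. Each pair runs in opposite directions on 2 days, and the difference between days was not tested. The *Il6* ratio at 5 dpi was 0.1919 with all columns, 0.155 with 30 principal components, and 0.206 with the smallest value as 1 UMI, the same direction as at 14 dpi. All 4 ratios rest on few UMIs: 3 and 71, 18 and 17, 4 and 21, and 29 and 9 in control and hypothyroid cells. The columns after the first run of each file, of uncertain condition, also held the family, with *Il6* at 245 CPM and *Osm* at 9.29 CPM over 7382 columns that copy no other file, against 239 and 14.4 CPM in the first runs.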

How the results depend on the processing

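No paired analysis was possible because each group is 1 library, and no replicate could be left out for the same reason. Of 147 values of the 21 called ratios under the alternatives, 139 kept their direction. The other 8 were *Il6* in monocyte/macrophage-like cells at 5 dpi with all columns (0.1919), 30 principal components (0.155), and the smallest value as 1 UMI (0.206), *Osmr* in the same cells with all columns (0.791), *Il6* in Gzmb-led cells at resolution 0.3 (2.39), and, without the 5 highest cells of each pool (an alternative chosen after seeing the data, which weighs more in small pools), *Il6* in endothelial-like cells at 5 dpi (0.374), *Il6* in myocyte-like cells at 14 dpi (0), and *Lif* in tenocyte-like cells at 14 dpi (0). *Il6ra* in FAP-like cells at 5 dpi ranged from 0.363 with thinned cells to 0.611 with all columns, and *Osm* in Il4i1-led cells from 1.66 to 5.02.

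Counts of calls moved by over 1.5 times as follows. At 0 dpi the 4 higher calls were 1 by mean log2(CPM + 1), and the 1 lower call was 3 with all columns and at resolution 0.3, 2 with 30 principal components and by mean log2, and 4 without the 5 highest cells. At 5 dpi the 4 higher calls were 8 with all columns, 1 with 30 principal components, 2 by mean log2, and 0 with thinned cells, and the 3 lower calls were 6 with all columns, with 30 principal components, and without the 5 highest cells, 9 with the smallest value as 1 UMI, 1 by mean log2, and 0 after division by the median ratio. At 14 dpi the 6 higher calls were 10 with the smallest value and 2 with thinned cells and without the 5 highest cells, and the 3 lower calls were 5 with 30 principal components, 0 by mean log2, and 8 without the 5 highest cells. Fewer UMIs after thinning leave fewer combinations to test, and the other causes were not tested.

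Shares of UMIs moved as follows, most for *Osm* in Il4i1-led and *Il6* in mural-like cells. *Lif* in FAP-like cells was 90.2% with all columns, 77.3% by mean log2, and 85.5% thinned, and *Osmr* there 72.9% by mean log2 and 71.4% thinned. *Clcf1* in myogenic progenitor-like cells was 34.1% with all columns and 23.3% by mean log2. *Il6st* in glial-like cells was 2.83% thinned. *Lifr* in endothelial-like cells was 9.58% with all columns, 12.2% with the smallest value, 20.8% by mean log2, and 24.7% thinned. *Il6* in mural-like cells was 0.766% with all columns, 2.77% at resolution 0.3, 2.67% with 30 principal components, 2.79% with the smallest value, 2.57% by mean log2, and 4.10% thinned. *Osm* in Il4i1-led cells was 13.2% with all columns, 12.4% with 30 principal components, 11.1% with the smallest value, 33.6% by mean log2, and 42.5% thinned. Pools with few UMIs give wide intervals, and their calls rest on few cells.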
